A study of Mus musculus with 13 samples.

Results

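The 37 genes described here are interferon-stimulated genes, the sensors and transcription factors around them, and genes of antigen presentation by MHC class I. They were taken from a list of names, not by a rule on measured values, but the list was chosen with earlier results of these data known. A gene was counted as measured where at least 1 probe set, the unit of the array that reads 1 transcript, carried its symbol and no other. That held for 35 of the 37, with 73 probe sets, among 18193 genes in all. Ifi44 had no probe set listed here and Isg15 only one listed with several genes, so neither has a value. The arrays read total RNA of 1 brain hemisphere from male mice of the strain C3HeB/FeJ: 6 mice that ate pellets with 1% creatine for 6 months and 7 untreated mice that ate pellets of equal calories without it, all aged 10 to 12 weeks when feeding began. Both groups are of 1 strain and carry no engineered allele named in the labels. Creatine is taken up by cells and buffers their ATP supply through creatine kinases.

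Type I interferons are secreted when a cell senses foreign nucleic acid. Type I interferons bind a receptor whose signal reaches Stat2 and Irf9, which act at an interferon-stimulated response element in the promoters of antiviral genes; interferon gamma acts in part through Irf1, and raises the genes that load peptides onto MHC class I. In a brain without infection these genes are known to be held at a low tonic level, in glia and vessel cells among others.

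Letters of this response element were searched in RefSeq promoters (build GRCm38.p6, of the strain C57BL/6J, so the C3HeB/FeJ letters may differ), each from 250 bases before to 50 bases after a start. The core GAAANNGAAA, on either strand, lay in the promoters of 15 of the 31 listed genes found in the table (48.4%), against 3.99% of all 27025 genes there and 3.44% of all 32851 promoters. The letters TTCNNNGAA of the gamma-activated site, which read the same on both strands, lay in 9 of the 31 (29.0%), against 9.55% of all genes. The 2 motifs were counted separately. A match is a description of letters, not a shown site. The following 6 stretches are shown because they show the element in genes whose values are described below. Each is written 5′ to 3′ on the strand of the gene, with the core in capitals.
Stat2 (chr10:128270261-128270300, plus strand): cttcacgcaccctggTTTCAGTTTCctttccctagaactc
Ifit1 (chr19:34640770-34640828, plus strand): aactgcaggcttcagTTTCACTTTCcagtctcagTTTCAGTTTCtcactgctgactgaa
Ifit3 (chr19:34583358-34583431, plus strand): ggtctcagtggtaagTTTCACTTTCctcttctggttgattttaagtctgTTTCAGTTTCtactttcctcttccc
Oas1a (chr5:120907515-120907560, minus strand): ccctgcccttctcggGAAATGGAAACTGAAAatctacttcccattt
Gbp3 (chr3:142559984-142560029, plus strand): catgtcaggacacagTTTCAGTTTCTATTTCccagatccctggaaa
B2m (chr2:122147533-122147572, plus strand): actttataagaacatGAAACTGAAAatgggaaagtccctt

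In Ifit1 the core occurred 2 times, its first base at position -104 from the start of the gene, and in Ifit3 also 2 times, from -156. In Oas1a 2 cores overlapped from -20 and in Gbp3 from -45, and 1 core began at -222 in Stat2 and at -139 in B2m. No core was found in the promoters of Irf3, Irf1, Irf7, Ifit2, Oasl2, H2-D1, H2-K1 or Tap1. Of the measured genes with a searched promoter, 14 had the core. Their median log2 difference, creatine-fed minus untreated, was -0.05, with 10 lower. The 15 that lacked it had a median of -0.14, with 14 lower. Both medians are for the values as deposited, without a second scaling. Parp14, Mx1, Mx2, Usp18, Ifi27 and Tap2 were measured but had no promoter to search and are in neither set.

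No interferon or antigen presentation gene passed the test between creatine-fed and untreated mice, but most means were lower in creatine-fed mice at the deposited scaling. The values are intensities on a linear scale, and the test was limma on log2(intensity + 16) over all 45037 probe sets, with the Benjamini-Hochberg adjusted p held to 0.05. Each gene is given at its brightest probe set over the 13 arrays, and lower or higher is counted from the mean of these log2 values (for Trim25 and Isg20, lower by that count, the plain means run slightly the other way). Where 3 values stand in a row for a group, they are the lowest, the median and the highest of its 6 creatine-fed or 7 untreated mice. None of the 35 was called, the smallest adjusted p being 0.232, where 0.00888% of all probe sets were called. Of the 35, 29 had lower and 6 higher means in creatine-fed mice, with a median log2 difference of -0.11; of all genes 58.5% were lower, with a median of -0.03.

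That count moved with the scaling of the arrays: after quantile normalization 22 of the 35 were lower (53.4% of all genes), and with arrays centred on their medians 20 of 35 (42.5% of all genes). The median of the 35 then was -0.08 and -0.06, beside medians over all genes of -0.01 and 0.02. The distance between the 2 medians was -0.08 as deposited and -0.07 after quantile normalization; median centring moves all genes by one amount and cannot change it. No test was run on the list, and a shift of the list against other genes is a description here.

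**Figure D1:**
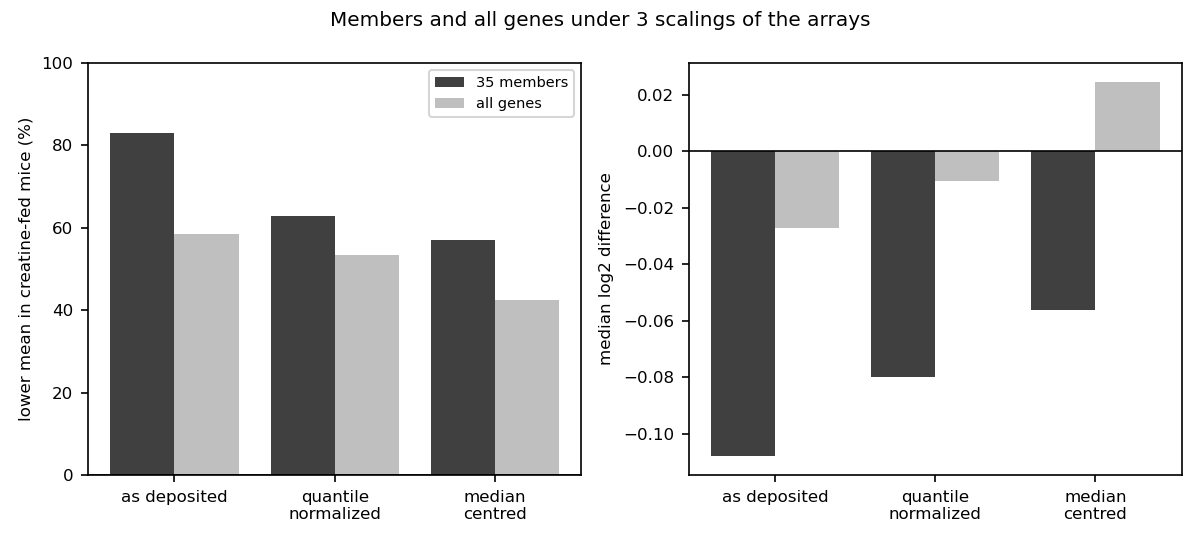
Share of genes with a lower mean in creatine-fed than in untreated mice (left, percent) and median log2 difference, creatine-fed minus untreated (right), for the 35 measured members (dark bars) and all 18193 genes (light bars) under 3 scalings of the arrays. The members' share was 82.9% as deposited, 62.9% after quantile normalization and 57.1% after median centring, above that of all genes each time.

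At an unadjusted p under 0.05 there were 4 of the 35 genes, Irf3, Irf1, Ifit1 and Parp14, all lower, where 11.2% of all genes reached that level and 7.61% did so with a lower mean. The share of the members is 11.4%, close to that of all genes. In none of the 35 did the groups stand apart, where 0.649% of all genes had groups that did not overlap. In 6 of them, Irf3, Irf7, Stat2, Ifit3, Oasl2 and Parp14, every creatine-fed value was under the untreated mean, which was the case in 11.3% of all genes. Counted over probe sets, 13 of the 73 were lower at that level and 0 higher, against 7.7% of all probe sets lower and 4.17% higher. After quantile normalization these were 8 lower and 0 higher (5.74% of all probe sets lower), and after median centring 5 lower and 1 higher (4% of all lower). Several of the 73 read the same transcript, so they are not independent.

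**Figure D2:**
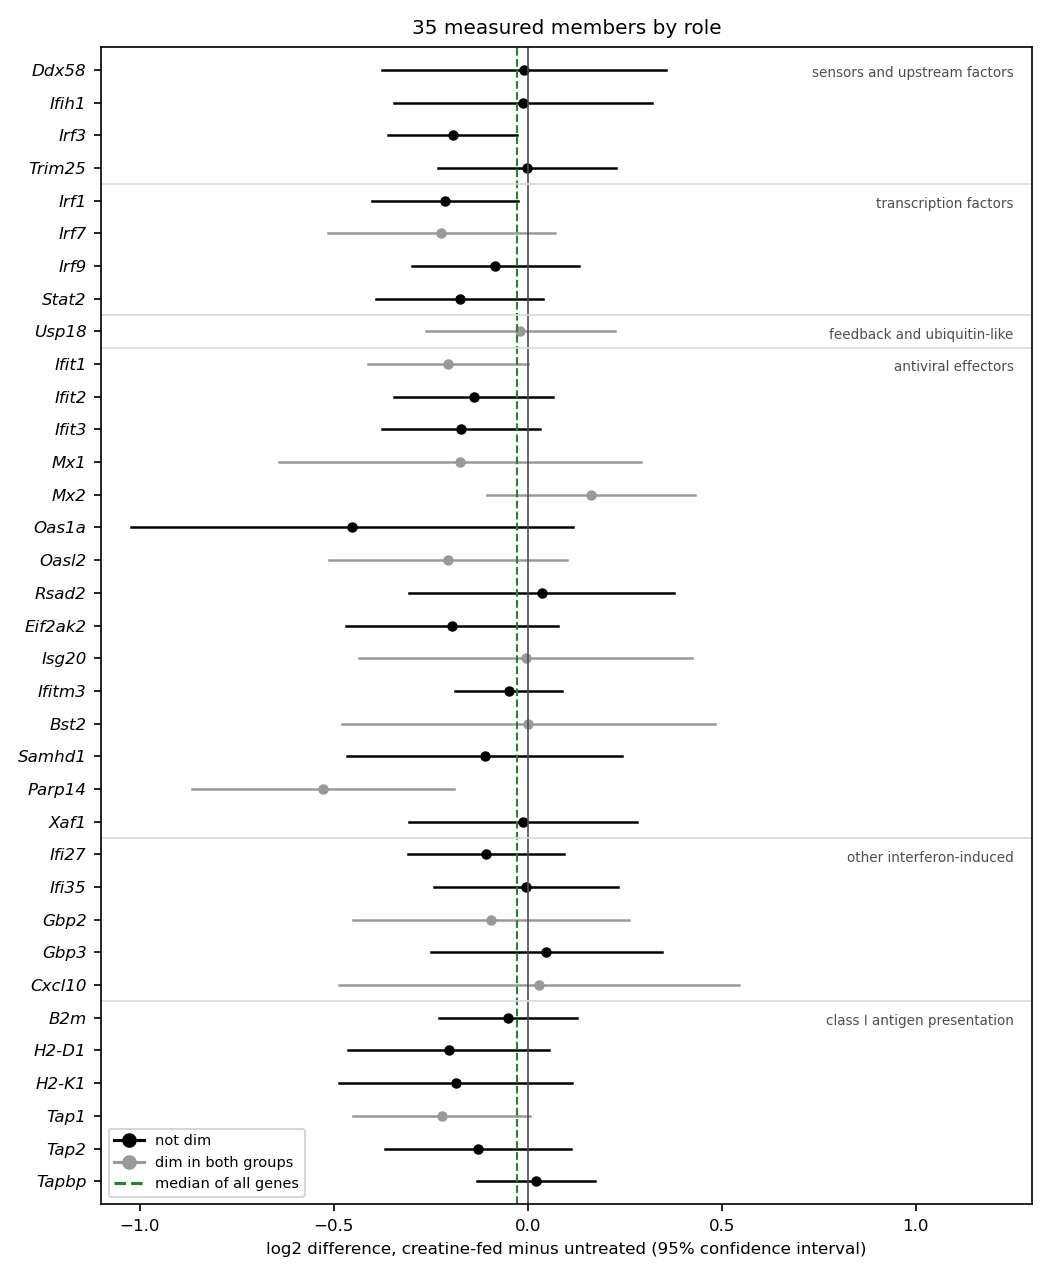
Log2 difference, creatine-fed minus untreated, with its 95% confidence interval for each of the 35 measured members at its brightest probe set, grouped by role; grey marks genes that were dim in both groups and the dashed line the median of all genes (-0.03). Most points lie left of 0, and all intervals but those of Irf3, Irf1, Ifit1 and Parp14 include 0.

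A gene is called dim here where its mean was under 41.8, the mean of the array medians, in both groups; the arrays give no call of detection. This held for 12 of the 35: Irf7, Usp18, Ifit1, Mx1, Mx2, Oasl2, Isg20, Bst2, Parp14, Gbp2, Cxcl10 and Tap1. Ifih1 lay at the limit, at 41.0 in creatine-fed and 42.1 in untreated mice, and counts as not dim through its untreated mean alone. All 73 probe sets were tested, with no filter on low values. Of the 23 members that were not dim, 20 had lower means (87.0%, against 54.4% of all genes not dim), 15 after quantile normalization and 13 after median centring. Ifih1 is among the 20.

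Among the sensors, Irf3, the transcription factor that viral RNA sensors switch on to induce interferon beta, had the smallest p. At 1426111_x_at its lowest, median and highest intensities were 136, 144.5 and 166 in creatine-fed mice, against 155, 166 and 209 in untreated mice. The groups overlapped between 155 and 166. The means were 148 ± 11.6 in creatine-fed and 172 ± 19.1 in untreated mice (SD, n = 6 and 7), and every creatine-fed value was under the untreated mean. The log2 difference was -0.19 ± 0.08 (SE, adjusted p = 0.347). A second probe set of Irf3, 1435271_at, read 42, 46 and 52 in creatine-fed mice, against 44, 63 and 74 in untreated mice (-0.32 ± 0.09, SE, adjusted p = 0.21). The groups overlapped between 44 and 52 there. The remaining 2 probe sets of Irf3, both dim, differed by 0.19 and 0.02. Letters after the number of a probe set, such as x and s, mark probes that can match other transcripts as well, and 19 of the 73 carry one of these.

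The RNA sensors themselves were close in mean. Ddx58, which encodes RIG-I, read 28, 47.5 and 52 (lowest, median, highest) in creatine-fed mice, against 20, 48 and 61 in untreated mice, a log2 difference of -0.01 with a 95% interval from -0.38 to 0.36. Ifih1, which encodes the sensor MDA5, read 27, 40.5 and 58 in creatine-fed mice, against 24, 42 and 66 in untreated mice (-0.01, interval from -0.35 to 0.32). Trim25, a ubiquitin ligase that acts with RIG-I, read 43, 53 and 70 in creatine-fed mice, against 42, 56 and 64 in untreated mice (0.00 to 2 decimals, interval from -0.23 to 0.23). The groups overlapped over most of their ranges in these 3 genes, and after quantile normalization or median centring all 3 means were higher in creatine-fed mice.

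Means of the 4 transcription factors, Irf1, Irf7, Irf9 and Stat2, were lower in creatine-fed mice at each of the 3 scalings, with a median log2 difference of -0.19 as deposited, -0.16 after quantile normalization and -0.14 after median centring. Irf1, which drives genes of the response to interferon gamma, read 83, 96.5 and 116 in creatine-fed mice, against 99, 114 and 128 in untreated mice. The means were 97.5 ± 14.0 in creatine-fed and 115 ± 11.0 in untreated mice (SD, n = 6 and 7). Of the creatine-fed values 5 were under the untreated mean, and 3 were under every untreated value. The log2 difference was -0.21 ± 0.09 (SE, adjusted p = 0.361). Stat2, which acts with Irf9 downstream of the type I receptor, read 78, 97 and 104 in creatine-fed mice, against 77, 115 and 134 in untreated mice. Its log2 difference was -0.17 ± 0.10 (SE, adjusted p = 0.528), and 1 untreated mouse, replicate 3 at 77, lay below all creatine-fed mice. A second probe set of Stat2, 1421911_at, read 29, 42.5 and 55 in creatine-fed mice, against 39, 55 and 66 in untreated mice (-0.25, adjusted p = 0.42). Irf9 read 49, 57.5 and 85 in creatine-fed mice, against 58, 67 and 73 in untreated mice, and differed by -0.08 ± 0.10 (SE), the highest of all 13 being a creatine-fed mouse. Irf7, which amplifies interferon alpha production, was dim, at 11, 26.5 and 28 in creatine-fed mice, against 21, 29 and 47 in untreated mice (-0.22 ± 0.14, SE). Its difference was -0.12 without creatine-fed replicate 3, at 11, and -0.15 without untreated replicate 1.

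Of the antiviral effectors, 12 of 15 had lower means in creatine-fed mice (median log2 difference -0.14, and -0.11 and -0.09 after quantile normalization and median centring). The 3 measured Ifit genes, whose proteins bind foreign RNA, lie beside each other on chromosome 19 and each had a lower mean. Ifit3 read 102, 113.5 and 128 in creatine-fed mice, against 99, 132 and 155 in untreated mice (-0.17 ± 0.09, SE, adjusted p = 0.505). Untreated replicate 1 held the lowest value of all 13 mice, and without it the difference was -0.23. Ifit2 read 73, 81.5 and 107 in creatine-fed mice, against 77, 97 and 114 in untreated mice (-0.14 ± 0.10, SE), and the dim Ifit1 21, 28 and 35 in creatine-fed mice, against 26, 35 and 43 in untreated mice (-0.21 ± 0.10, SE, adjusted p = 0.42). The groups overlapped in all 3.

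Parp14, an ADP-ribosyltransferase, had the smallest p of the 35 but was dim. It read 4, 17 and 24 in creatine-fed mice, against 21, 27 and 43 in untreated mice. The means were 15.8 ± 6.88 in creatine-fed and 29.6 ± 8.83 in untreated mice (SD, n = 6 and 7), which on the log2 scale gave -0.53 ± 0.16 (SE, adjusted p = 0.232). The groups overlapped between 21 and 24, where 1 creatine-fed mouse lay. The size depended on the offset, with -0.97 at an offset of 1 and -0.27 at an offset of 50. Its other probe set, 1432548_at, also dim, differed by -0.27.

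Oas1a, an enzyme that makes the activator of RNase L, had the largest SE of the effectors that were not dim. It read 10, 51 and 83 in creatine-fed mice, against 40, 70 and 89 in untreated mice (-0.45 ± 0.27, SE, adjusted p = 0.537), and without creatine-fed replicate 1, at 10, the difference was -0.23. Eif2ak2, the kinase PKR that halts translation on double-stranded RNA, read 32, 52.5 and 61 in creatine-fed mice, against 42, 58 and 72 in untreated mice (-0.20 ± 0.13, SE), and differed by -0.11 without creatine-fed replicate 4. Of its other 2 probe sets, both dim, 1422005_at differed by 0.02. The dim Oasl2, a relative of Oas1a, read 21, 28 and 34 in creatine-fed mice, against 14, 37 and 45 in untreated mice (-0.21 ± 0.14, SE), and differed by -0.33 without untreated replicate 7.

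Samhd1, which depletes the deoxynucleotides that viruses need, differed between its probe sets. The brightest, 1434438_at, read 50, 65.5 and 89 in creatine-fed mice, against 45, 71 and 111 in untreated mice (-0.11 ± 0.17, SE), a difference that ran from -0.20 without untreated replicate 1 to -0.026 without untreated replicate 4. At 1418131_at it read 46, 57.5 and 77 in creatine-fed mice, against 66, 73 and 79 in untreated mice (-0.26 ± 0.09, SE, adjusted p = 0.271), where 5 creatine-fed values were under the untreated mean of 72.4. At 1420273_x_at it read 6, 25.5 and 71 in creatine-fed mice, against 23, 71 and 97 in untreated mice (-0.87 ± 0.33, SE, adjusted p = 0.321), while 1420272_at, dim, differed by 0.34. The mean at 1420273_x_at was 28.5 in creatine-fed mice, under the dim limit, and 61.4 in untreated mice.

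The other effectors that were not dim were close in mean at their brightest probe sets. Ifitm3, which keeps viruses from fusing with endosomes, read 192, 200.5 and 219 in creatine-fed mice, against 186, 214 and 232 in untreated mice, a log2 difference of -0.05 with a 95% interval from -0.19 to 0.09. This is the narrowest interval of the 35. Rsad2, or viperin, read 35, 54 and 65 in creatine-fed mice, against 29, 47 and 70 in untreated mice (0.04). At the dim 1421009_at, Rsad2 gave 3, 16 and 21 in creatine-fed mice, against 14, 20 and 32 in untreated mice (-0.36 ± 0.16, SE, adjusted p = 0.382), and 1421008_at differed by -0.12. Xaf1, a promoter of cell death, read 57, 74 and 94 in creatine-fed mice, against 50, 76 and 107 in untreated mice (-0.01). Its other probe set differed by 0.02. The dim Mx1 and Mx2 (dynamin-like antiviral GTPases, the first known to be defective in most laboratory strains), Isg20, an exonuclease, and Bst2, or tetherin, differed by -0.17, 0.16, -0.01 and 0.00 (2 decimals). Mx1 ran from -0.31 without creatine-fed replicate 6 to -0.049 without untreated replicate 2, and Mx2 was at 0.056 without creatine-fed replicate 6. Usp18, which removes Isg15 from proteins and damps the receptor, was dim and differed by -0.02 ± 0.11 (SE).

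The other interferon-induced genes showed no common direction, with a median log2 difference of 0.00 to 2 decimals over the 5 as deposited and 0.05 after median centring. Ifi27, a small mitochondrial protein, read 187, 256 and 278 in creatine-fed mice, against 218, 272 and 300 in untreated mice (-0.11 ± 0.09, SE), and -0.17 at its other probe set. Without creatine-fed replicate 5 its difference was -0.036. Gbp3, a guanylate-binding GTPase, read 37, 45 and 78 in creatine-fed mice, against 36, 43 and 61 in untreated mice (0.05 ± 0.14, SE). Ifi35 read 50, 59.5 and 76 in creatine-fed mice, against 39, 65 and 71 in untreated mice (0.00 to 2 decimals), and its 2 other probe sets, both dim, differed by 0.03 and 0.23. The chemokine Cxcl10, which draws T cells, was dim, at 1, 11 and 39 in creatine-fed mice, against 2, 11 and 19 in untreated mice (0.03 ± 0.24, SE), as was Gbp2 (-0.10 ± 0.17, SE), whose other probe set differed by 0.10.

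Of the 6 genes of class I presentation, 5 had lower means in creatine-fed mice, with a median log2 difference of -0.16, or -0.12 and -0.11 after quantile normalization and median centring. B2m, the light chain that every class I molecule shares, read 695, 773.5 and 933 in creatine-fed mice, against 708, 811 and 919 in untreated mice (-0.05 ± 0.08, SE). At its other probe set, 1452428_a_at, it read 401, 427 and 476 in creatine-fed mice, against 440, 506 and 542 in untreated mice (-0.16 ± 0.07, SE, adjusted p = 0.377), every creatine-fed value being under the untreated mean of 489. The 95% interval of the brightest probe set ran from -0.23 to 0.13 and includes the difference at the other.

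The class I heavy chains H2-D1 and H2-K1, which hold the peptide, were read by 9 and 4 probe sets, most of them with probes that can match related genes. C3H mice are known to carry another MHC haplotype (k) than the strain of the reference genome (b), and whether each probe set matches the alleles of C3HeB/FeJ was not tested. H2-D1 read 84, 109.5 and 142 in creatine-fed mice, against 103, 126 and 160 in untreated mice at 1450170_x_at (-0.20 ± 0.12, SE, adjusted p = 0.542), and 25, 42 and 51 in creatine-fed mice, against 35, 63 and 72 in untreated mice at 1425545_x_at (-0.37 ± 0.16, SE, adjusted p = 0.392). The mean at 1425545_x_at was 39.2 in creatine-fed mice, under the dim limit, and 55.7 in untreated mice. The other 7 probe sets of H2-D1 differed by -0.23 to 0.26, 4 of them higher and 6 of them dim. H2-K1 read 33, 43.5 and 56 in creatine-fed mice, against 32, 55 and 76 in untreated mice at 1425336_x_at (-0.19 ± 0.14, SE, and -0.11 without untreated replicate 6). At 1451931_x_at it read 16, 33.5 and 38 in creatine-fed mice, against 33, 45 and 50 in untreated mice (-0.41 ± 0.12, SE, adjusted p = 0.237), and at the dim 1427746_x_at 4, 13 and 38 in creatine-fed mice, against 13, 28 and 43 in untreated mice (-0.49 ± 0.21, SE). The mean at 1451931_x_at was 30.0 in creatine-fed mice, under the dim limit, and 44.3 in untreated mice. All 4 probe sets of H2-K1 had lower means in creatine-fed mice.

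The transporter that brings peptides to class I molecules is made of Tap1 and Tap2. Tap2 read 50, 63 and 97 in creatine-fed mice, against 59, 71 and 86 in untreated mice (-0.13 ± 0.11, SE), with 1 creatine-fed mouse, replicate 5, above all others. Without it the difference was -0.22, and without creatine-fed replicate 2 it was -0.070. The dim Tap1 read 13, 19.5 and 26 in creatine-fed mice, against 18, 25 and 34 in untreated mice (-0.22 ± 0.11, SE, adjusted p = 0.438), and of its 3 other probe sets, all dimmer, 1449803_x_at differed by 0.03. Tapbp, which encodes tapasin, read 237, 272.5 and 298 in creatine-fed mice, against 241, 258 and 303 in untreated mice (0.02, 95% interval from -0.13 to 0.17), while 1450378_at differed by -0.14.

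**Figure D3:**
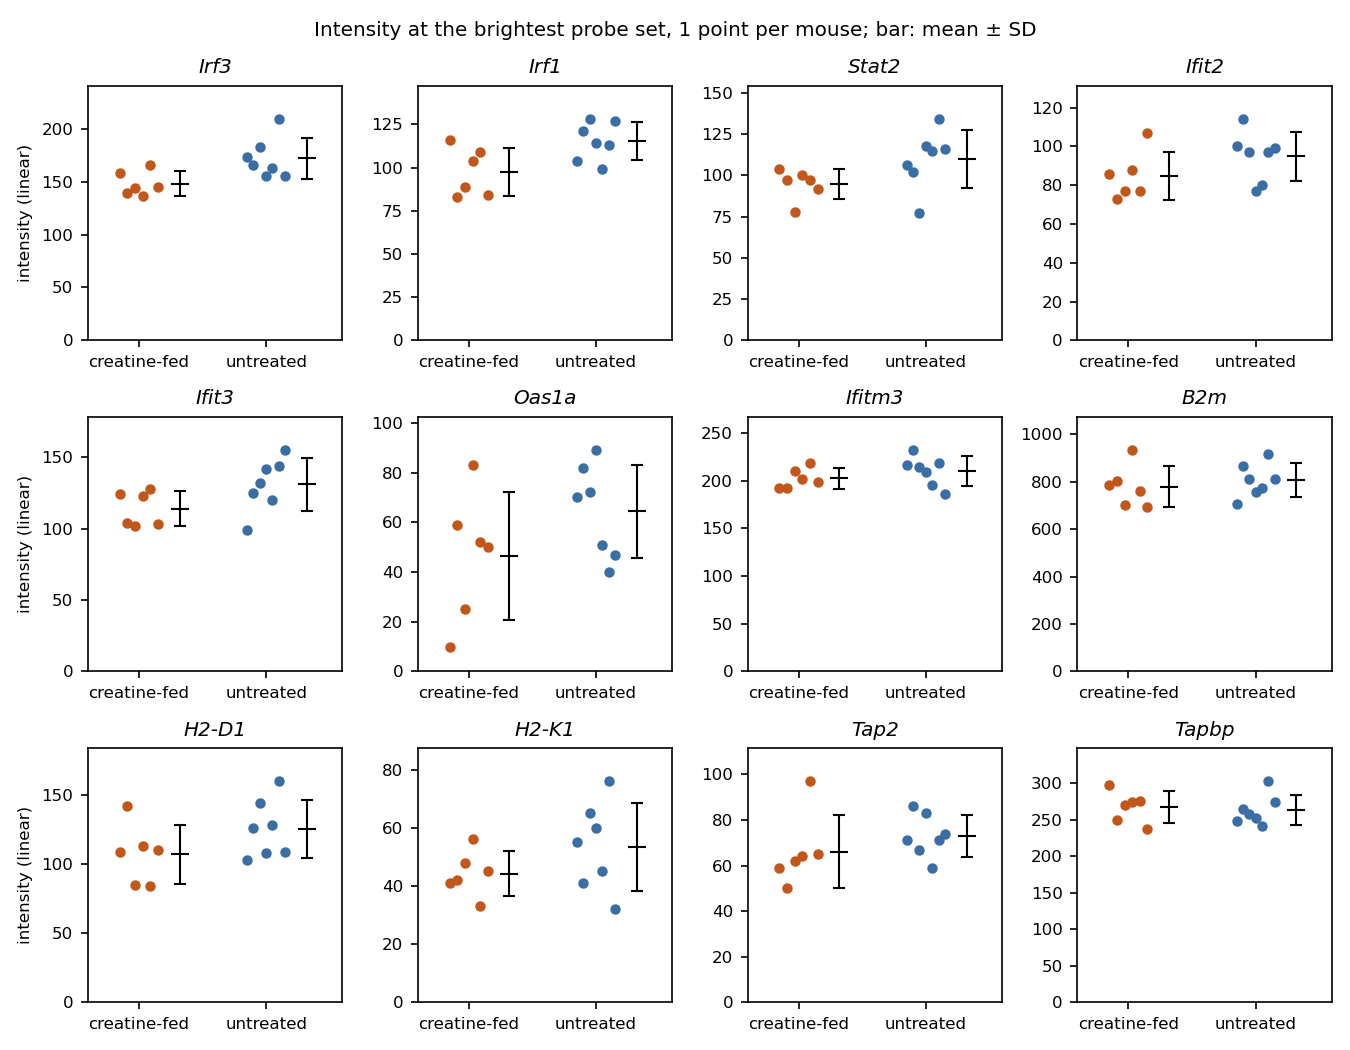
Intensity on a linear scale for 12 of the members at their brightest probe sets, 1 point per mouse, with the mean ± SD beside the points (6 creatine-fed and 7 untreated mice). The groups overlap in every panel; for Irf3, creatine-fed mice sit between 136 and 166 and untreated mice between 155 and 209.

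An untreated mouse, replicate 6, was high in many of these genes at once. Untreated replicate 6 held the highest value of all 13 mice in 9 of the 23 members that were not dim (39.1%), against 8.36% of all genes not dim. The 9 were Ddx58, Irf3, Stat2, Rsad2, Eif2ak2, Xaf1, H2-D1, H2-K1 and Tapbp. This mouse lay above the mean of the 13 in 21 of the 23 (91.3%, against 53.0% of all genes not dim). H2-K1 read 76 in it, against at most 65 in the other mice, and Xaf1 107 against at most 94. No other mouse held the highest value in more than 3 of the 23. At the other end creatine-fed replicate 3 lay above the mean in 6 of the 23, and across creatine-fed mice this count ran from 6 to 11, while across untreated mice it ran from 7 to 21. In untreated replicate 6, Oas1a, at 40, the lowest untreated value, and Samhd1, at 66, lay under the mean of the 13. Dim members went both ways in it: Ifit1 read 43, the highest untreated value, and Mx1 2, the lowest.

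Without untreated replicate 6, 24 of the 35 members had lower means (57.6% of all genes), with a median log2 difference of -0.10, and 9 of the 73 probe sets were lower at an unadjusted p under 0.05 and 0 higher (7.05% of all probe sets lower). Xaf1 was then higher in creatine-fed mice, by 0.06, and Irf3 differed by -0.15. Its endothelial marker sum, 1210, was the highest of the 13 mice, and its microglial sum, 2318, lay within the range of the others. Its median intensity over all probe sets was 42. The part of cell makeup in its values was not tested.

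**Figure D4:**
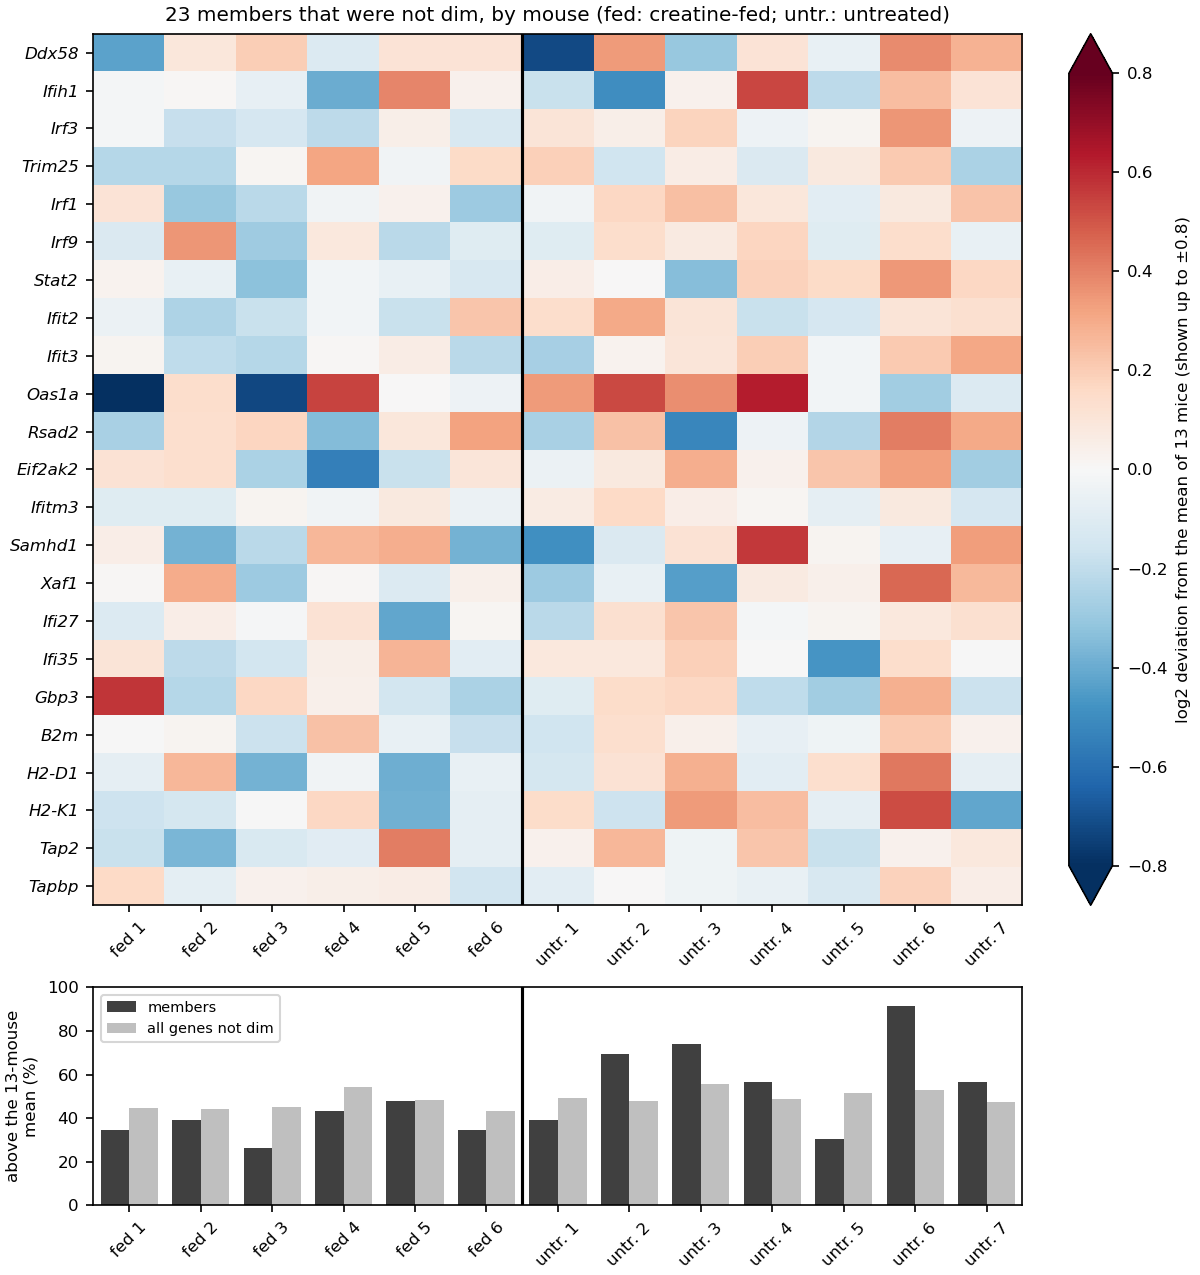
Above, the log2 deviation of each of the 23 members that were not dim from its mean over 13 mice, with creatine-fed mice left of untreated mice; below, the share of these members (dark) and of all genes not dim (light) that lay above the 13-mouse mean in each mouse, in percent. Untreated replicate 6 stands out, at 91.3% of members against 53.0% of all genes.

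Of 93 further genes of the pathway listed beside these, 81 were measured, and none passed in either direction. Of the 81, 53 had lower and 28 higher means in creatine-fed mice (65.4% lower, against 58.5% of all genes, with a median log2 difference of -0.05), and 11 reached an unadjusted p under 0.05, 9 lower and 2 higher. That is 13.6% of the 81, near the 11.2% of all genes. The 5 interferon genes measured were all dim, with 2 lower and 3 higher means (median 0.04). Ifng differed by -0.21, Ifna1 by 0.20 and Ifnb1 by -0.16. Among 13 receptors, kinases and regulatory factors, 6 had lower and 7 higher means (median 0.003). The smallest p in that list belonged to Ifngr1, the ligand-binding chain of the interferon gamma receptor. It read 78, 92.5 and 113 in creatine-fed mice, against 108, 118 and 131 in untreated mice (-0.32 ± 0.08, SE, adjusted p = 0.186). Every creatine-fed value was under the untreated mean of 119, and the groups overlapped between 108 and 113. Socs3, a feedback inhibitor of cytokine receptors, read 5, 25.5 and 33 in creatine-fed mice, against 32, 46 and 57 in untreated mice (-0.80 ± 0.21, SE, adjusted p = 0.199), and Irf8, a transcription factor of microglia, 36, 43.5 and 51 in creatine-fed mice, against 46, 54 and 72 in untreated mice (-0.26 ± 0.09, SE, adjusted p = 0.28). The groups overlapped between 32 and 33 for Socs3 and between 46 and 51 for Irf8.

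Of 11 sensors and adaptors, 9 had lower means. Adar, which edits double-stranded RNA and keeps it from the sensors, read 821, 852.5 and 941 in creatine-fed mice, against 915, 949 and 1010 in untreated mice (-0.15 ± 0.06, SE, adjusted p = 0.328). The dim Zbp1, a nucleic acid sensor of cell death, and Tlr7, an endosomal receptor of single-stranded RNA, both differed by -0.38. Of 33 other interferon-stimulated genes 26 had lower means (median -0.08), the smallest p belonging to the dim Oas2 (-0.32), Gbp6 (-0.21) and Ifi47 (-0.17). Ly6e, which was not dim, also reached an unadjusted p under 0.05 and was higher in creatine-fed mice. It differed by 0.14 ± 0.07 (SE, adjusted p = 0.417), and every creatine-fed value was above the untreated mean of 621.

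In the rest of the class I route, 5 of 11 genes had lower means and 6 higher (median 0.04). Psmb10, a catalytic subunit of the immunoproteasome that cuts peptides, read 291, 323 and 339 in creatine-fed mice, against 332, 372 and 425 in untreated mice (-0.22 ± 0.07, SE, adjusted p = 0.255). Every creatine-fed value was under the untreated mean of 375. Psmb8, a subunit of the same particle, differed by 0.18 and the chaperone Pdia3 by 0.16. The mean of Psmb8 was 43.0 in creatine-fed mice and 36.7, under the dim limit, in untreated mice. Of 8 class II genes 5 were lower (median -0.07), H2-Oa differing by 0.36, H2-Aa by -0.15 and H2-Ab1 by -0.20, all 3 dim.

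Cell type markers were read beside these genes, since less RNA per cell and fewer cells of a type cannot be told apart in tissue RNA. Neuron, astrocyte and oligodendrocyte markers were bright in all mice, the labelled tissue being a brain hemisphere; neuron sums ran from 22265 to 24710 in creatine-fed and from 23177 to 25442 in untreated mice. Of 11 measured microglial and macrophage markers 2 had lower and 9 higher means in creatine-fed mice, and their summed intensity ran from 2265 to 2495 in creatine-fed and from 2033 to 2549 in untreated mice. Endothelial sums ran from 947 to 1136 in creatine-fed and from 980 to 1210 in untreated mice, with 3 of 6 lower, and astrocyte sums from 6221 to 7103 in creatine-fed and from 6516 to 7990 in untreated mice, with 5 of 6 lower. All 5 oligodendrocyte markers were lower, with sums from 12669 to 14794 in creatine-fed and from 14444 to 18274 in untreated mice. Mbp, at a mean of 9139 in creatine-fed and 10796 in untreated mice, made up most of these sums. Of the 5, 3 reached an unadjusted p under 0.05 in the limma test, against 11.2% of all genes, and none was called (smallest adjusted p 0.186). The 4 neutrophil markers were lower too, with sums from 87 to 127 in creatine-fed and from 74 to 600 in untreated mice, the 2 highest being untreated replicates 5 and 7. All 9 measured T, NK and B cell markers were dim, 7 of them lower, and 4 of 6 choroid plexus and 2 of 3 red blood cell markers were lower. The part of these markers in the differences of the interferon genes was not tested. The ratio of 3' to 5' signal of the actin control probe sets, a measure of RNA integrity, ran from 1.42 to 1.68 in creatine-fed and from 1.53 to 1.72 in untreated mice, and that of Gapdh from 0.782 to 0.878 in creatine-fed and from 0.776 to 0.837 in untreated mice.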

How the data were processed

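Biotin-labelled cRNA from each hemisphere was read on 1-colour arrays, per the labels. The deposited intensity values are linear whole numbers for 45101 probe sets; on every array their trimmed mean is the same, so the authors' values have the form of a global scaling. RMA, the tool named in the submitters' processing notes, gives log2 values with equal quantiles, which these are not. Array medians ran from 37 to 45. The sources used here name no scan date or other batch, and none was tested.

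After 64 control probe sets were set aside, log2 of the value plus an offset of 16 was fitted for 45037 probe sets with limma 3.58.1 (lmFit, eBayes; R 4.3.3), 2-sided, with no covariate. Adjustment followed Benjamini-Hochberg across these probe sets. The fit was tested on simulated data. Symbols came from the platform's probe table, updated by Entrez ID. Named are all members and other probe sets of a member with an unadjusted p under 0.05 or the opposite sign. Of the other pathway genes, those named are the 3 per list with the smallest p and any other with an unadjusted p under 0.05. Genes, lists and tests were chosen with earlier results of these data known. Alternatives were quantile normalization, median centring, offsets of 1 and 50, the 22516 brighter probe sets alone, eBayes with trend and robust, array weights, a block, the mean over probe sets and leaving out each mouse. The number of arrays limits the precision. Figures used matplotlib 3.10.9 (Python 3.11.15).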

Additional observations from a re-analysis of the deposited data

Results flagged for a closer look

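In 5 of the 70 combinations of a member and a group, 1 mouse stood far from the rest of its group. The measure was the gap of that mouse to the nearest mouse over the whole range of the group on the log2 scale. Chance gives this in about 1 in 20 if the log2 values are normally distributed, which was not tested. Irf7 read 11 in creatine-fed replicate 3, against 22 to 28 in the other creatine-fed mice. Oasl2 read 14 in untreated replicate 7, against 33 to 45 in the other untreated mice. Ifi35 read 39 in untreated replicate 5, against 60 to 71 in the others. Gbp2 read 9 in creatine-fed replicate 5, against 23 to 34 in the other creatine-fed mice, and 12 in untreated replicate 3, against 28 to 36 in the other untreated mice. All 5 values were low ones, and Ifi35 is the 1 gene among these 4 that was not dim.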

How the results depend on the processing

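No member was called under any of the 22 alternatives, where the smallest adjusted p was 0.17. Members with lower means numbered 20 to 30 of 35 over these alternatives (20 of 23 among the 22516 brighter probe sets), and their median log2 difference stayed below 0, from -0.13 to -0.06. Over all probe sets 4 were called, against 2 after quantile normalization, 0 with an offset of 1, 36 with an offset of 50, 137 when only the 22516 brighter probe sets were tested, 161 with eBayes trend and robust, 13 with array weights and 0 under the replicate block. Omitting each mouse in turn gave 0 to 6, with 0 without creatine-fed replicate 3 or 5 or any of untreated replicates 2 to 6. The cause was not tested. Same-numbered mice did not deviate together (correlations from -0.06 to 0.15), so the numbers were not taken as pairs; with the replicate block, where untreated replicate 7 has no partner and does not bear on the difference, 26 of 35 members were lower.

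Log2 differences near 0 changed sign with the setting, none of them past the threshold. After quantile normalization the sign turned for Ddx58 (0.044), Ifih1 (0.042), Trim25 (0.046), Usp18 (0.045), Isg20 (0.057), Xaf1 (0.015) and Ifi35 (0.033). After median centring the sign turned for Ddx58 (0.043), Ifih1 (0.039), Trim25 (0.050), Usp18 (0.033), Isg20 (0.046), Ifitm3 (0.0025), Xaf1 (0.038), Ifi35 (0.047) and B2m (0.0011). With an offset of 1 the sign turned for Ddx58 (0.0055), Bst2 (-0.11) and Cxcl10 (-0.084). With an offset of 50 the sign turned for Isg20 (0.0062). With array weights the sign turned for Ddx58 (0.0032), Ifi35 (0.0085) and Cxcl10 (-0.0057). Under the replicate block the sign turned for Ddx58 (0.037), Ifih1 (0.0045), Isg20 (0.053), Bst2 (-0.068) and Xaf1 (0.029). Averaging over a gene's probe sets the sign turned for Rsad2 (-0.15), Xaf1 (0.0052), Ifi35 (0.084), Gbp2 (0.0035) and Tapbp (-0.061). Omitting each mouse in turn, signs turned for Ddx58 (-0.13 to 0.076), Trim25 (-0.064 to 0.045), Usp18 (-0.070 to 0.031), Isg20 (-0.11 to 0.15), Gbp3 (-0.062 to 0.10), Tapbp (-0.0085 to 0.054), Bst2 (-0.11 to 0.14), Ifi35 (-0.084 to 0.037), Xaf1 (-0.087 to 0.062), Ifih1 (-0.097 to 0.076), Gbp2 (-0.20 to 0.042), Cxcl10 (-0.17 to 0.17), Rsad2 (-0.049 to 0.11). The members not named here kept their sign throughout. Intensities under or near the array medians limit what can be seen in the 12 dim members and in those close to the dim limit, such as Ifih1 and Ddx58.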
